A study of Mus musculus with 203 samples.

Results

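Expression of 10 smooth muscle contractile genes was described in airway and parenchyma tissue of mice given house dust mite extract (HDM), cigarette smoke (CS), dexamethasone (DEX) or their controls. The genes were Acta2, Actg2, Myh11, Tagln, Cnn1, Smtn, Lmod1, Mylk, Des and Myocd, chosen by name from the 43346 gene identifiers of the count table. RNA-seq libraries of airways (101) and of parenchyma fell into 20 groups. The tissues had been separated by blunt dissection. Every library came from a female Balb/C mouse labelled 18 to 20 weeks old, with the same age label at both times.

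At 3 weeks, HDM-exposed mice had received HDM intranasally 5 days per week for 3 weeks, and controls had received phosphate buffered saline (PBS). These 43 libraries were 11 PBS and 10 HDM airway libraries and 12 PBS and 10 HDM parenchyma libraries. At 11 weeks, HDM or PBS was continued 3 times per week from week 4 to week 11, while mice breathed normal air (AIR) or were exposed over those 8 weeks to CS, 2 times on each of 5 days a week. The 11-week groups were PBS.AIR, HDM.AIR, PBS.CS and HDM.CS, each without and with DEX given in week 11, with 10 libraries per tissue and group. The labels do not tell which airway and parenchyma libraries came from the same mouse, and the tissues entered the fits as independent samples.

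Smooth muscle contracts when calcium and calmodulin activate myosin light chain kinase, which phosphorylates the light chains of smooth muscle myosin so that it pulls on actin filaments. The actins, the myosin heavy chain and the proteins that line or anchor the filaments are transcribed under serum response factor and its coactivator myocardin, which act at short DNA elements called CArG boxes. Airway smooth muscle forms bundles around bronchi and is known for narrowing them, and the same genes are used by vascular smooth muscle and, in part, by myofibroblasts. In bulk tissue, fewer smooth muscle cells and less RNA per cell cannot be told apart.

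Values are CPM, a gene's reads per 1000000 reads assigned to genes in a library, with the library totals scaled by the trimmed mean of M values (TMM). Library totals ran from 13003087 to 40240680 with a median of 28090612. All 10 genes passed the filter on low counts in the fits at 3 and 11 weeks. Differences are log2 fold changes (log2FC) from limma-voom fitted to all genes that passed the filter, and a gene was called upregulated or downregulated at an adjusted p-value (adj.p.val, Benjamini-Hochberg over all those genes) under 0.05. The p-values set each difference against the spread between libraries within groups, pooled over all groups of a fit.

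The tissue labels were checked against marker genes. A summed list of 6 airway epithelial markers ran from 39644 to 58631 CPM in PBS.AIR airways and from 15589 to 29066 CPM in PBS.AIR parenchyma, and 6 alveolar epithelial markers from 5001 to 19748 and from 18028 to 28744 CPM. Airway libraries also held RNA of tissues outside the bronchi. The sum of 12 cardiac muscle markers ran from 394 to 4363 CPM in PBS.AIR airways and from 35.2 to 54.8 CPM in PBS.AIR parenchyma. In 4 airway libraries, 3 of the HDM group at 3 weeks (replicates 2, 6 and 10) and 1 of HDM.AIR (replicate 6), the cardiac sum lay within the range of all parenchyma libraries, and 1 HDM.AIR parenchyma library (replicate 4) held 4140 CPM of 10 skeletal muscle markers against at most 6.38 CPM in the others of its group. Results that rest on these libraries are given with and without them.

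The 10 genes fill several places in the contractile machinery. Acta2 encodes the smooth muscle alpha-actin of vessels and airways and Actg2 the gamma-actin of visceral smooth muscle. Myh11 encodes the smooth muscle myosin heavy chain. Cnn1 (calponin), Tagln (transgelin) and Smtn (smoothelin) encode proteins bound to actin filaments, Lmod1 encodes leiomodin, which starts new actin filaments, and Mylk encodes myosin light chain kinase. Des encodes desmin, the intermediate filament protein of all muscle including heart, and Myocd encodes myocardin.

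In GENCODE M21 on GRCm38 (mm10), all are protein-coding genes. Acta2 (ENSMUSG00000035783.8) lies on chromosome 19 from 34241090 to 34255590 on the minus strand, Actg2 (ENSMUSG00000059430.10) on chromosome 6 from 83512905 to 83536265 (minus) and Myh11 (ENSMUSG00000018830.8) on chromosome 16 from 14194535 to 14291372 (minus). Tagln (ENSMUSG00000032085.4) lies on chromosome 9 from 45929619 to 45936058 (minus), Cnn1 (ENSMUSG00000001349.4) on chromosome 9 from 22099216 to 22109630 (plus) and Smtn (ENSMUSG00000020439.13) on chromosome 11 from 3517523 to 3540612 (minus). Lmod1 (ENSMUSG00000048096.7) lies on chromosome 1 from 135324807 to 135368065 (plus), Mylk (ENSMUSG00000022836.10) on chromosome 16 from 34745210 to 35002420 (plus), Des (ENSMUSG00000026208.9) on chromosome 1 from 75360329 to 75368579 (plus) and Myocd (ENSMUSG00000020542.14) on chromosome 11 from 65176561 to 65269989 (minus). No 100-base stretch of a transcript of these genes was found in a transcript of another gene, Acta2 and Actg2 included. Exons of Tagln, Des, Smtn and Mylk overlap genes annotated on the opposite strand, and since the strand setting of the counting is not given in the sources used here, reads of those overlaps cannot be told apart. Mylk counts cover the whole locus, which is known to give more than 1 kinase isoform and a non-kinase product.

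Windows from 250 bases before to 50 bases after the transcript start were at hand from RefSeq (GRCm38.p6) for 6 of the 10 genes (Acta2, Cnn1, Des, Lmod1, Mylk and Smtn). Positions count from the RefSeq start, which differs from the GENCODE gene bounds above. The Mylk and Smtn windows and the Acta2 stretch shown lie inside those bounds, so other starts of these genes were not searched. The Acta2 window is shown because its boxes are the elements at which serum response factor and myocardin are known to act. Capitals mark the CArG box letters with 1 substitution in the AT core, at positions -84 and -34 from the start, on the minus strand of chr19:34255374-34255493, searched on both strands.
Acta2 promoter, -120 to -1: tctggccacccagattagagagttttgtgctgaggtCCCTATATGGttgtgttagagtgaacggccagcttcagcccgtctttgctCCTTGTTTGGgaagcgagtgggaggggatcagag
None of the 6 windows held an exact CArG box, which 1.63% of all 32851 windows did. With 1 substitution allowed, 9.98% of all windows held the box, and Acta2 was the only one of the 6. These are letter matches in short windows and say nothing of elements elsewhere.

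At 11 weeks in PBS.AIR mice, the contractile genes were higher in airways than in parenchyma, with the exceptions of Mylk and Smtn. These 8 of the 10 were higher in airways by log2FC 1.60 (Des) to 4.44 (Cnn1), and all 10 airway libraries exceeded all 10 parenchyma libraries for each of those 8. Of all genes tested, 26.3% were higher in airways by the same test and 10.3% had airway libraries all above parenchyma libraries. The median log2FC of the 10 genes was 2.37, against -0.030 over all genes tested.

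Cnn1 showed the largest difference. Its lowest, median and highest values were 40.95, 127.3 and 233 CPM in PBS.AIR airways and 2.97, 5.09 and 7.48 CPM in PBS.AIR parenchyma. The mean was 121.1 ± 62.4 CPM (SD, n = 10) against 5.18 ± 1.60 CPM (SD, n = 10), with log2FC 4.44, SE 0.38, adj.p.val 4.60e-21 by limma-voom. The highest parenchyma library held less calponin RNA than the lowest airway library. Acta2 was at 116.3, 283 and 462 CPM (lowest, median, highest) in airways and 21.8, 29.9 and 41.4 CPM in parenchyma (log2FC 3.05, SE 0.23, adj.p.val 9.86e-25), and Actg2 at 19.8, 48.9 and 92.6 and 2.97, 3.55 and 6.29 CPM (log2FC 3.51, SE 0.38, adj.p.val 4.25e-15). For both actins no airway library reached down to the parenchyma range. Myh11 was at 84.1, 210.4 and 351 and 21.3, 34.1 and 45.5 CPM (log2FC 2.56, SE 0.22, adj.p.val 6.35e-21) and Myocd at 0.825, 2.64 and 6.27 and 0.0423, 0.318 and 0.536 CPM (log2FC 2.98, SE 0.39, adj.p.val 3.89e-11). Myocardin was the least abundant of the 10, with 1 to 15 reads per PBS.AIR parenchyma library and at least 28 per PBS.AIR airway library. Lmod1, Tagln and Des were higher in airways by log2FC 2.18, 1.88 and 1.60 (SE 0.24, 0.21 and 0.20).

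Mylk and Smtn were not higher in airways at 11 weeks. Mylk was at 164.5, 247 and 310.1 CPM in PBS.AIR airways and 231, 286 and 324 CPM in PBS.AIR parenchyma, and was slightly lower in airways (log2FC -0.22, SE 0.095, adj.p.val 0.0422), as were 30.1% of all genes tested, a call that was lost in 11 of 40 fits that left out 1 library (adj.p.val up to 0.149) and under DESeq2 or edgeR. For Mylk, 5 of the 10 airway libraries were below all parenchyma libraries. Smtn was at 25.3, 36.9 and 59.1 and 27.7, 33.99 and 37.6 CPM, and its difference did not pass the test (log2FC 0.18, 95% CI -0.074 to 0.44, adj.p.val 0.228).

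**Figure D1:**
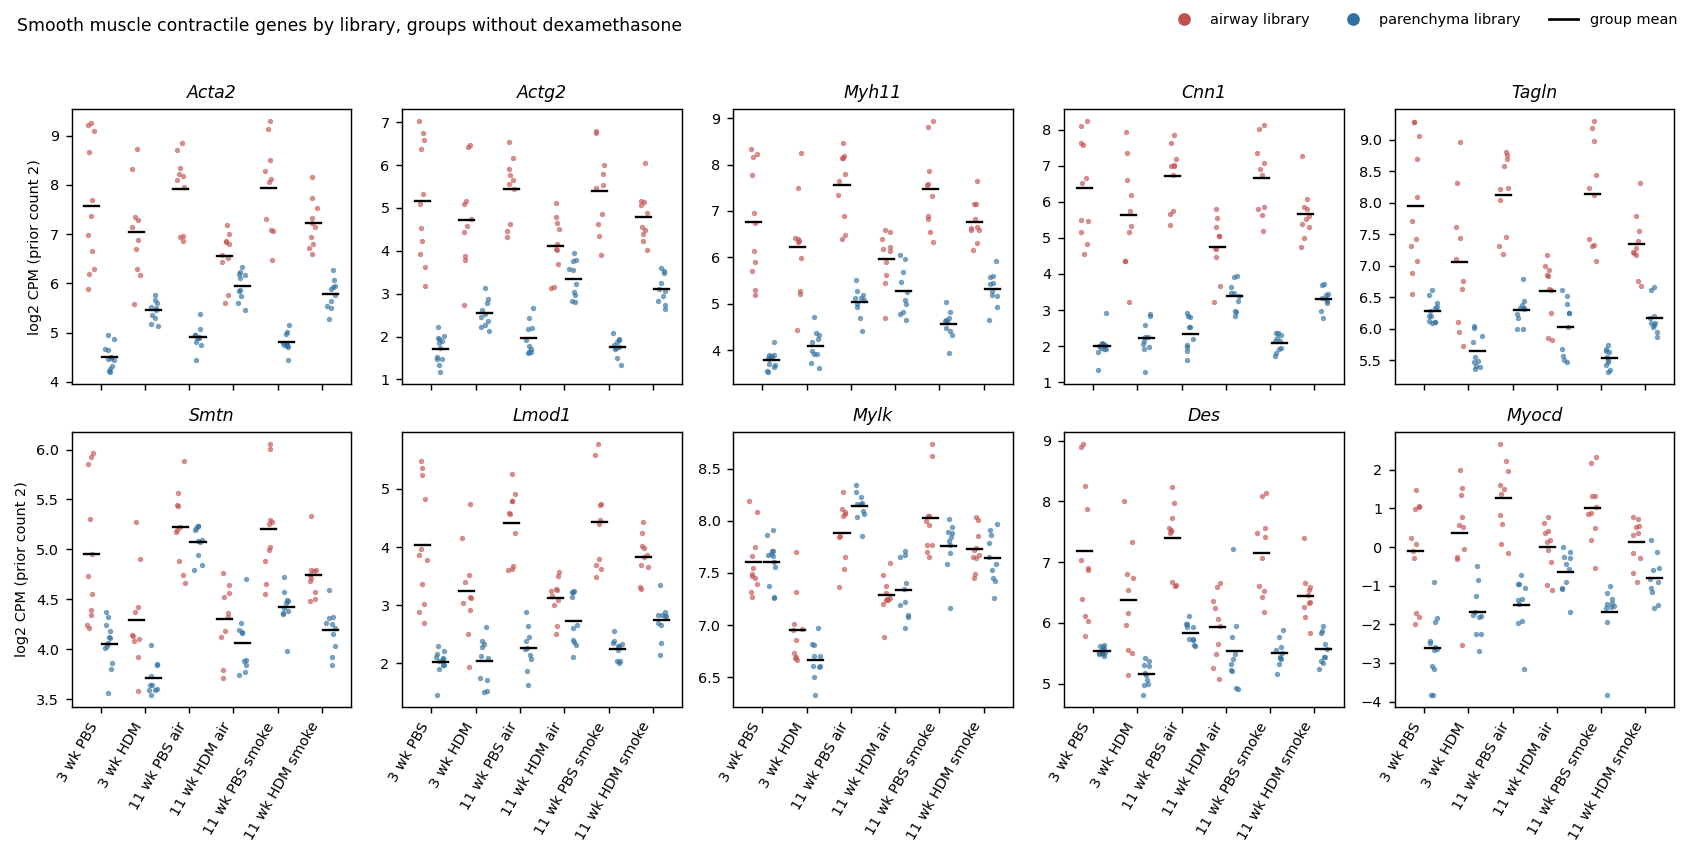
Log2 CPM (prior count 2) of the 10 genes in every library of the 12 groups without dexamethasone, airway in red and parenchyma in blue, with a black line at each group mean. Airway points lie above parenchyma points in PBS mice for most genes but not for Mylk or, at 11 weeks, Smtn, and the airway points are more widely spread.

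Per kilobase of exon, levels of different genes can be set side by side roughly. The length is the union of all exons of a gene and not that of the transcripts expressed. The place of genes with several isoforms, such as Mylk, is therefore uncertain. The order in PBS.AIR airways was Tagln at 152.04 ± 58.3 CPM per kb (mean ± SD, n = 10), Acta2 at 122.1 ± 54.6, Des at 47.8 ± 17.9, Cnn1 at 44.3 ± 22.8, Actg2 at 31.3 ± 14.9, Myh11 at 27.4 ± 12.3 and Mylk at 21.3 ± 4.07. Smtn, Lmod1 and Myocd followed at 8.78 ± 2.34, 5.76 ± 2.20 and 0.435 ± 0.268 CPM per kb. Neighbours in this order down to Mylk differed by less than the larger of their SDs, except Acta2 and Des. The genes vary together between airway libraries, so these SDs do not measure whether a gene exceeded its neighbour within a library. In PBS.AIR parenchyma the kinase stood second, at 25.1 ± 2.33 CPM per kb, after Tagln at 39.9 ± 6.74. Des (15.3 ± 1.80), Acta2 (13.8 ± 2.28), Smtn (7.70 ± 0.838) and Myh11 (4.38 ± 0.880 CPM per kb) came next, and Actg2, Cnn1, Lmod1 and Myocd were at 2.56 ± 0.720, 1.89 ± 0.585, 1.23 ± 0.317 and 0.0496 ± 0.0231 CPM per kb.

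At 3 weeks in PBS mice, 9 of the 10 genes were higher in airways (all but Mylk), against 24.3% of all genes tested. Myocd is 1 of the 9 but passed the filter on low counts only through airway libraries, so that its difference follows in part from the filter. The range was log2FC 0.92 (Smtn, SE 0.20) to 4.39 (Cnn1, SE 0.68), and Mylk was at 153.8, 179.6 and 291 CPM (lowest, median, highest) in airways and 153.3, 203.4 and 241 CPM in parenchyma (log2FC 0.010, 95% CI -0.21 to 0.23). Airway and parenchyma libraries did not overlap for 6 genes, Acta2, Actg2, Myh11, Cnn1, Des and Lmod1, against 7.00% of all genes tested. The 11 PBS airway libraries at 3 weeks were widely spread, with Acta2 at 59.1, 165.3 and 612 CPM and Des at 55.1, 119.3 and 492 CPM, while the 12 parenchyma libraries held 18.4, 22.2 and 30.9 CPM of Acta2 and 44.04, 45.6 and 49.7 CPM of Des.

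In airways at 11 weeks, all 10 contractile genes were downregulated in HDM.AIR mice relative to PBS.AIR controls. The actins, the myosin, the filament proteins, desmin and myocardin had log2FC from -0.89 (Smtn) to -1.94 (Cnn1), and the kinase had -0.58. Of all genes tested, 29.8% were lower by the same test. For 8 genes, all but Smtn and Mylk, the log2FC was at or below -1, which 8.54% of all genes reached. The median log2FC was -1.31, against 0.0037 over all genes.

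Myh11 was at 84.1, 210.4 and 351 CPM (lowest, median, highest of 10) in PBS.AIR airways and 25.7, 71.6 and 95.5 CPM in HDM.AIR airways, so that 7 of 10 HDM libraries lay below all controls (log2FC -1.56, SE 0.21, adj.p.val 1.18e-10). Acta2 went from 116.3, 283 and 462 to 48.7, 103.2 and 145.4 CPM (log2FC -1.34, SE 0.22, adj.p.val 4.90e-08) and Actg2 from 19.8, 48.9 and 92.6 to 8.69, 17.1 and 34.4 CPM (log2FC -1.29, SE 0.26, adj.p.val 4.47e-06). For the actins 7 and 6 of the 10 HDM libraries were below every control. Cnn1 went from 40.95, 127.3 and 233 to 9.30, 29.6 and 55.9 CPM (log2FC -1.94, SE 0.26, adj.p.val 3.97e-11), Tagln from 145.1, 298 and 448 to 56.3, 106.8 and 143.8 CPM (log2FC -1.52, SE 0.21, adj.p.val 1.04e-10) and Smtn from 25.3, 36.9 and 59.1 to 13.03, 20.2 and 27.2 CPM (log2FC -0.89, SE 0.14, adj.p.val 8.73e-09). Tagln and Lmod1 were the genes whose HDM and control libraries did not overlap, against 6.03% of all genes tested. Lmod1 went from 12.2, 23.9 and 38.1 to 5.58, 9.17 and 11.8 CPM (log2FC -1.24, SE 0.21, adj.p.val 5.68e-08).

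Des, Mylk and Myocd followed the same direction with different sizes. Des was at 97.1, 183.7 and 303 CPM in PBS.AIR and 33.6, 64.2 and 101.1 CPM in HDM.AIR airways (log2FC -1.44, SE 0.20, adj.p.val 1.91e-10), with 9 of 10 HDM libraries below all controls. Mylk had the smallest change, from 164.5, 247 and 310.1 to 118.1, 152.8 and 193.1 CPM (log2FC -0.58, SE 0.092, adj.p.val 2.13e-08). Myocd went from 0.825, 2.64 and 6.27 to 0.391, 1.04 and 1.64 CPM (log2FC -1.25, SE 0.30, adj.p.val 1.14e-04), and only 3 of its HDM libraries were below all controls. All 10 calls were kept in each of the 40 fits that left out 1 library and in the fit without the HDM.AIR library of low cardiac content. With airways fitted on their own by limma-voom, adjusted p-values were larger, with 1.24e-05 for Acta2 and 0.00119 for Myocd, the largest.

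Other tissues' markers moved in the same libraries. The 12 cardiac markers were all lower in HDM.AIR airways, with sums from 394 to 4363 CPM in PBS.AIR and from 44.1 to 699 CPM in HDM.AIR, and their part in the result was not tested. Of the 10 skeletal muscle markers, 3 of 7 tested were lower (sums from 21.5 to 140.95 and from 4.87 to 24.9 CPM, with Myh4 at 0 in all HDM.AIR airway libraries). All 4 adipose markers (sums from 60.98 to 442 and from 6.50 to 38.5 CPM), 6 of 6 cartilage markers (from 40.2 to 154.5 and from 13.5 to 62.7 CPM) and 1 of 2 tested thyroid markers (from 12.7 to 30.4 and from 4.802 to 8.91 CPM) were lower as well. Leukocyte markers were higher for 7 of 7 tested, with sums from 281 to 569 CPM in PBS.AIR and from 1099 to 1687 CPM in HDM.AIR. The airway smooth muscle markers Lgr6 and Hhip summed to 27.3 to 85.9 CPM in PBS.AIR and 9.20 to 30.1 CPM in HDM.AIR airways, with 1 of the pair lower by the test. Airway epithelial markers were lower for 5 of 6 (sums from 39644 to 58631 and from 8935 to 27544 CPM), pericyte and vascular smooth muscle markers for 6 of 10 (from 217 to 409 and from 189.7 to 313 CPM), fibroblast markers for 3 of 8 with 2 higher (from 1441 to 2468 and from 1328 to 1808 CPM), and alveolar markers for 1 of 6 with 1 higher (sums from 5001 to 19748 and from 8313 to 16972 CPM). The part of these cells in the fall of the contractile genes was not tested.

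Other smooth muscle genes were read from 3 lists. Of 16 genes of the contractile apparatus and its anchoring, 13 were lower and 1 higher in HDM.AIR airways (median log2FC -1.21). The lowest adjusted p-values were those of Pgm5 (-1.38) and Synm (-1.48), which encode proteins of the membrane attachment sites and of intermediate filaments, and Jph2 (-1.43), which couples the membrane to calcium stores and is also a cardiac gene. Tln1, the integrin linker talin, was higher (0.40). Of 16 genes that control contraction, 12 were lower and 1 higher (median -0.43), including Chrm2, the M2 muscarinic receptor (-2.26), Prkg1, the cGMP-dependent kinase (-1.22), and Ppp1cb, the catalytic subunit of myosin phosphatase (-0.42), while Rhoa was higher (0.33). Of 10 transcriptional regulators, 6 were lower and 2 higher (median -0.34). Foxf1 (-1.20), Prdm6 (-0.71) and Gata6 (-0.47) were lower, and Mef2c (0.83) and Mrtfa, a relative of myocardin (0.66), were higher. The share of all genes tested that were lower was 29.8%.

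In parenchyma at 11 weeks, contractile genes were called in both directions. Acta2, Actg2, Cnn1 and Myocd were upregulated in HDM.AIR mice relative to PBS.AIR controls, Mylk and Smtn were downregulated, and Myh11, Tagln, Lmod1 and Des did not pass the test. Of all genes tested, 32.6% were higher and 26.9% lower, so the number of calls among the 10 was near that of all genes. The median log2FC of the 10 genes was 0.41, against 0.047 over all genes.

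Acta2 was at 21.8, 29.9 and 41.4 CPM (lowest, median, highest of 10) in PBS.AIR parenchyma and 43.95, 63.3 and 80.9 CPM in HDM.AIR parenchyma (log2FC 1.11, SE 0.21, adj.p.val 2.74e-06). Actg2 went from 2.97, 3.55 and 6.29 to 6.88, 10.5 and 15.5 CPM (log2FC 1.44, SE 0.41, adj.p.val 0.00141). For both actins every HDM library exceeded every control, as did 11.8% of all genes tested. Cnn1 went from 2.97, 5.09 and 7.48 to 7.09, 10.8 and 15.3 CPM, with 9 of 10 HDM libraries above all controls (log2FC 1.13, SE 0.41, adj.p.val 0.0136). Myocd, at 0.0423, 0.318 and 0.536 and 0.243, 0.636 and 0.926 CPM, passed the test narrowly (log2FC 1.03, SE 0.45, adj.p.val 0.0397), and its call was lost in 12 of 40 fits that left out 1 library, with adj.p.val up to 0.139 and log2FC 0.75 without replicate 1 of the PBS.AIR parenchyma, its lowest library.

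Mylk and Smtn fell in parenchyma. Mylk was at 231, 286 and 324 CPM in PBS.AIR and 125.3, 155.7 and 210.1 CPM in HDM.AIR parenchyma (log2FC -0.74, SE 0.093, adj.p.val 2.78e-12), and Smtn at 27.7, 33.99 and 37.6 and 13.4, 16.3 and 25.9 CPM (log2FC -0.95, SE 0.14, adj.p.val 3.27e-09). Every HDM library was below every control for both, as for 11.1% of all genes tested. Myh11 (log2FC 0.30 ± 0.21, SE), Lmod1 (0.53 ± 0.28) and Tagln (-0.20 ± 0.19) had adjusted p-values of 0.218, 0.0950 and 0.370. Des was at 29.9, 41.04 and 148.8 CPM in HDM.AIR against 49.4, 56.99 and 68.9 CPM in PBS.AIR parenchyma (log2FC -0.24, SE 0.19, adj.p.val 0.295), the highest being the library of high skeletal muscle content. Without that library Des was lower in HDM.AIR mice (log2FC -0.47, adj.p.val 0.0271) and Myocd was just short of the threshold (log2FC 1.01, adj.p.val 0.0506). The fit at 11 weeks pooled the spread of both tissues. With parenchyma fitted on its own by limma-voom, Lmod1 was also called (log2FC 0.51). Actg2, Cnn1 and Myocd then had adj.p.val 5.44e-10, 9.17e-08 and 0.0105.

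None of the 12 cardiac markers passed the test in this comparison, with sums from 35.2 to 54.8 and from 35.6 to 47.8 CPM. Pericyte and vascular smooth muscle markers were lower for 7 of 10, with sums from 402 to 496 CPM in PBS.AIR and from 188.6 to 301 CPM in HDM.AIR parenchyma. Leukocyte markers were higher for 7 of 7 tested (sums from 348 to 485 and from 1191 to 2064 CPM), and alveolar markers lower for 4 of 6 with 1 higher (from 18028 to 28744 and from 11741 to 18164 CPM). The part of these cells in the result was not tested. Of the apparatus and anchoring genes, 2 of 16 were higher (Synpo2 0.85 and Flna 0.27) and 7 lower, Synm (-2.02), Itga8 (-1.71) and Pgm5 (-1.23) with the lowest adjusted p-values. Of the contraction control genes, 4 of 16 were higher, among them Kcnmb1, the beta subunit of a calcium-activated potassium channel (1.08), Atp2a2, the calcium pump of the reticulum (0.47), and Ppp1r12b (0.35). Another 8 were lower, with the lowest adjusted p-values for Prkg1 (-1.39), Ednra (-1.01) and Rock2 (-0.80). Of the transcriptional regulators, 2 of 10 were higher (Mef2c 0.46, Mrtfa 0.31) and 6 lower, with Foxf1 at -1.87, Prdm6 at -1.04 and Gata6 at -0.65. The shares over all genes tested were 32.6% higher and 26.9% lower.

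The HDM effect at 11 weeks differed between the tissues for 8 of the 10 genes, tested as the airway log2FC minus the parenchyma log2FC. All 8 differences were negative, as for 14.9% of all genes tested. Cnn1 (-3.07 ± 0.49, log2 difference ± SE), Actg2 (-2.73 ± 0.48), Acta2 (-2.44 ± 0.31) and Myocd (-2.29 ± 0.54) had opposite directions in the tissues. Myh11 (-1.86 ± 0.30), Lmod1 (-1.77 ± 0.35), Tagln (-1.31 ± 0.28) and Des (-1.20 ± 0.28) fell in airways and did not pass the test in parenchyma. Mylk and Smtn fell in both, and their differences of 0.16 (95% CI -0.094 to 0.42, adj.p.val 0.370) and 0.061 (95% CI -0.33 to 0.45, adj.p.val 0.853) did not pass the test.

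**Figure D2:**
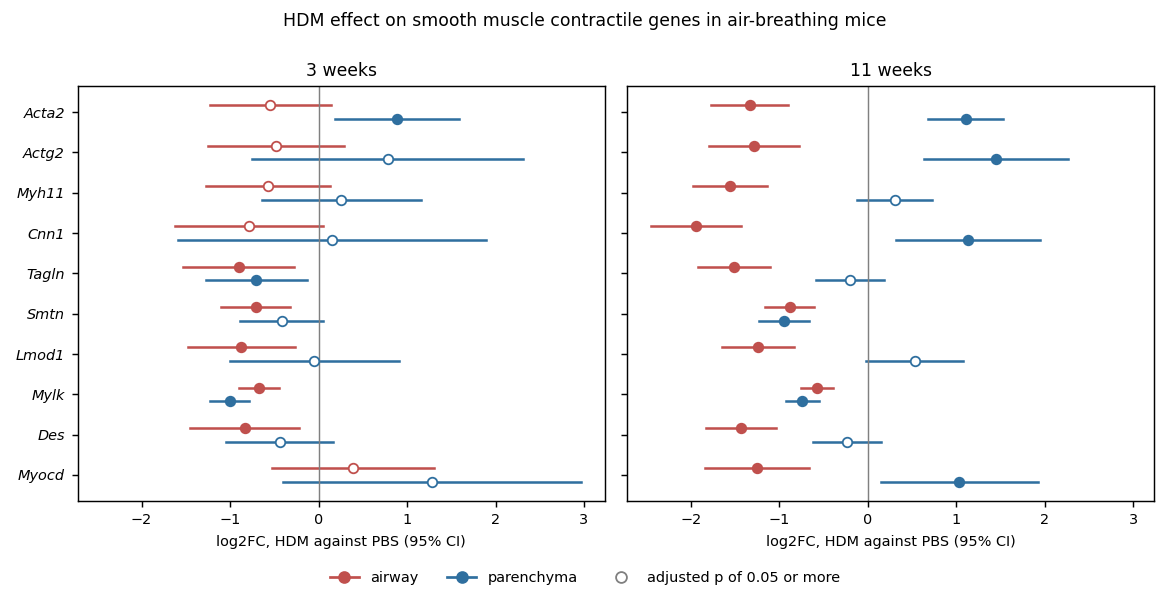
Log2FC of each gene in HDM against PBS mice breathing air, with 95% confidence intervals, at 3 weeks (left) and 11 weeks (right), airway in red and parenchyma in blue, open symbols for adjusted p-values of 0.05 or more. At 11 weeks all 10 airway values lie below 0, while the parenchyma values run from -0.95 (Smtn) to 1.44 (Actg2).

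At 3 weeks, part of the contractile genes passed the test in airways. Tagln, Lmod1, Des, Smtn and Mylk were downregulated in airways of HDM-exposed mice, 5 of 10 genes, against 40.5% of all genes tested, and HDM and control libraries overlapped for all 10, while they were separate in the downward direction for 9.15% of all genes. Acta2, Actg2, Myh11 and Cnn1 had log2FC from -0.79 to -0.48 and adjusted p-values from 0.0850 to 0.254, and Myocd had log2FC 0.39 (adj.p.val 0.439). The median log2FC was -0.69, against -0.067 over all genes.

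Mylk was the most uniform of these, at 153.8, 179.6 and 291 CPM (lowest, median, highest of 11) in PBS and 101.7, 119.9 and 207 CPM (of 10) in HDM airways, with 8 HDM libraries below all controls (log2FC -0.67, SE 0.11, adj.p.val 1.32e-06). Smtn was at 18.5, 26.6 and 62.6 and 11.9, 17.6 and 38.7 CPM, with 6 HDM libraries below all controls (log2FC -0.71, SE 0.19, adj.p.val 0.00117). Tagln was at 93.8, 209 and 626 and 52.5, 123.1 and 499 CPM (log2FC -0.90, SE 0.31, adj.p.val 0.00870). For Acta2 9 of 10 HDM libraries lay within the control range, with 59.1, 165.3 and 612 and 47.7, 129.3 and 423 CPM, and its log2FC of -0.55 ± 0.34 did not pass the test. Lmod1 (log2FC -0.87, SE 0.30, adj.p.val 0.00912) and Des (log2FC -0.84, SE 0.30, adj.p.val 0.0129) were lower by similar amounts.

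The count depended on the fit and on a few libraries. With airway libraries fitted on their own, 2 genes were called, against 71.2% of all genes, Mylk (-0.62) and Smtn (-0.65). Without the airway libraries of low cardiac content, 3 were called, against 68.8% of all genes, Mylk (log2FC -0.49) and Smtn (-0.48, adj.p.val 0.0483) lower and Myocd higher (1.15, adj.p.val 0.00836), while Acta2, Actg2, Myh11 and Cnn1 were at -0.040, 0.15, 0.026 and -0.0061. Those libraries were all of HDM mice and were picked by a sum that runs with these genes. Leaving them out was bound to raise most HDM values, and they included the lowest HDM library for Myocd (0.101 CPM). In this comparison 11 of 12 cardiac markers were lower, with sums from 415 to 6276 CPM in PBS and from 51.1 to 1255 CPM in HDM airways, and their part in the result was not tested. The airway smooth muscle markers Lgr6 and Hhip were both lower, with sums from 39.7 to 106.4 and from 10.8 to 44.4 CPM. Of the other smooth muscle lists, 12 of 16 apparatus and anchoring genes, 8 of 16 contraction control genes and 6 of 10 regulators were lower, and 3, 2 and 3 were higher. The share of all genes tested that were lower was 40.5%.

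In parenchyma at 3 weeks, Acta2 was upregulated and Tagln and Mylk were downregulated in HDM-exposed mice, against 33.4% of all genes higher and 44.3% lower. Acta2 was at 18.4, 22.2 and 30.9 CPM (lowest, median, highest of 12) in PBS and 35.3, 44.6 and 54.1 CPM (of 10) in HDM parenchyma (log2FC 0.89, SE 0.35, adj.p.val 0.0194). Mylk went from 153.3, 203.4 and 241 to 80.5, 100.7 and 125.6 CPM (log2FC -1.005, SE 0.11, adj.p.val 4.13e-11) and Tagln from 68.2, 75.8 and 97.5 to 40.97, 45.7 and 65.5 CPM (log2FC -0.70, SE 0.28, adj.p.val 0.0240). HDM and control libraries did not overlap for these 3 genes or for Des, which was at 44.04, 45.6 and 49.7 and 28.2, 35.7 and 42.8 CPM (log2FC -0.44, SE 0.30, adj.p.val 0.179). Libraries of the groups were separate in the upward direction for 20.3% and in the downward direction for 19.4% of all genes tested.

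In the 3-week fit, the tight parenchyma libraries shared 1 spread with the variable airway libraries. With parenchyma fitted on its own, 7 of the 9 genes tested were called, where 80.8% of all genes were: Acta2 (1.00), Actg2 (0.89) and Myh11 (0.36) higher, and Mylk (-0.90), Tagln (-0.59), Des (-0.33) and Smtn (-0.31) lower. The Tagln call was lost in 11 of 43 fits that left out 1 library, with log2FC as small as -0.57 and adj.p.val up to 0.0674. Most of those fits left out an HDM airway library, which is not part of this comparison, and gave Tagln log2FC -0.61. With parenchyma fitted on its own by limma-voom, Tagln had adj.p.val 8.84e-07. Cnn1 (0.15 ± 0.86, SE) and Lmod1 (-0.050 ± 0.47) were called in neither fit, and Myocd, with 0 to 8 reads per PBS parenchyma library, had log2FC 1.28 ± 0.84 (adj.p.val 0.158). Pericyte and vascular smooth muscle markers were lower for 8 of 10 (sums from 306 to 415 and from 127.3 to 179.5 CPM), and their part in the result was not tested. Of the other smooth muscle genes, 4 of 16, 3 of 16 and 3 of 10 were higher and 8, 8 and 6 were lower in the apparatus, control and regulator lists. The shares over all genes tested were 33.4% higher and 44.3% lower.

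Between tissues at 3 weeks, the HDM effect differed for Acta2 alone of the 10 genes (log2 difference -1.43, 95% CI -2.42 to -0.45, adj.p.val 0.0356), against 6.44% of all genes with a lower airway effect. That call was lost in 7 of 43 fits that left out 1 library, those without replicates 2, 5, 8 or 9 of PBS or 3, 6 or 10 of HDM airways (adj.p.val up to 0.0607), and without the airway libraries of low cardiac content. Of the genes called over the whole table in this comparison, 62.7% had the higher effect in airways, and 42.1% with DESeq2 size factors. The HDM effect in airways was more negative at 11 than at 3 weeks for Cnn1 (-1.22 ± 0.43, log2 difference ± SE), Myh11 (-1.04 ± 0.35) and Myocd (-1.72 ± 0.49), with adjusted p-values of 0.0215, 0.0177 and 0.00385, against 13.9% of all genes with a lower effect at 11 weeks. The Myocd values were of opposite sign, 0.39 at 3 weeks (not called) and -1.25 at 11 weeks. With airways fitted on their own, 1 of the 10 was called (25.3% of all genes), and without the airway libraries of low cardiac content 7 were (26.3%). Those libraries were picked by a sum that runs with these genes, and were mostly HDM airways at 3 weeks. Leaving them out was bound to shift this difference and the tissue difference at 3 weeks. In parenchyma Smtn was lower by a larger amount at 11 weeks (-0.66 ± 0.24, adj.p.val 0.0207, against 20.9% of all genes). The 3-week and 11-week mice differed in the length and frequency of exposure and had separate controls.

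Cigarette smoke alone gave no call among the contractile genes of airways. None of the 10 was called in PBS.CS against PBS.AIR airways by limma-voom, DESeq2 or edgeR, against 13.7% of all genes called by limma-voom. None had an unadjusted p under 0.05, against 4655 of the 18250 genes tested. Log2FC ran from -0.25 (Des, 95% CI -0.65 to 0.15) to 0.14 (Mylk, 95% CI -0.046 to 0.33). Acta2 was at 293 ± 182.7 CPM (mean ± SD, n = 10) in PBS.CS airways and 268 ± 119.96 CPM in PBS.AIR airways. Cnn1 was at 36.8, 112.9 and 280.4 CPM (lowest, median, highest) in PBS.CS airways, against 40.95, 127.3 and 233 CPM in PBS.AIR airways, and the groups overlapped. Of the 12 cardiac markers, 6 were lower in PBS.CS airways. Whether the smoke effect differed between the tissues was not tested.

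In parenchyma, Tagln, Smtn and Mylk were lower with smoke, 3 of 10 genes, against 18.2% of all genes tested. Tagln went from 63.3, 79.7 and 110.7 CPM in PBS.AIR to 39.6, 45.9 and 53.6 CPM in PBS.CS parenchyma (log2FC -0.75, SE 0.19, adj.p.val 0.00101) and Smtn from 27.7, 33.99 and 37.6 to 15.8, 21.7 and 26.4 CPM (log2FC -0.63, SE 0.14, adj.p.val 9.87e-05). For both, every smoke library was below every control, as for 3.28% of all genes tested. Mylk went from 231, 286 and 324 to 143.4, 227 and 259 CPM (log2FC -0.36, SE 0.094, adj.p.val 9.58e-04). The other 7 genes had log2FC from -0.47 (Myh11, adj.p.val 0.0916) to -0.0027 (Lmod1). With parenchyma fitted on its own, Myh11 was also called lower (log2FC -0.47, adj.p.val 0.00616). Pericyte and vascular smooth muscle markers were lower for 5 of 10 (sums from 402 to 496 and from 260.3 to 363 CPM), and their part in the result was not tested.

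In mice given both HDM and smoke, airways again held less contractile RNA than in PBS.AIR mice, with 9 of 10 genes downregulated (all but Mylk), against 23.8% of all genes tested. Cnn1 was at 26.7, 47.5 and 153.1 CPM in HDM.CS airways (log2FC -1.06, SE 0.25, adj.p.val 1.49e-04), Myocd at 0.467, 1.19 and 1.64 CPM (log2FC -1.17, SE 0.28, adj.p.val 2.10e-04) and Des at 57.01, 84.2 and 168.3 CPM (log2FC -0.93, SE 0.20, adj.p.val 3.65e-05). Libraries of the groups overlapped for all 10 genes, and were separate in the downward direction for 2.56% of all genes. The others ran from log2FC -0.79 (Tagln) to -0.47 (Smtn), and Mylk had -0.15 ± 0.094 (SE, adj.p.val 0.195). With airways fitted on their own by limma-voom, Actg2 was not called (adj.p.val 0.0856) and 8 of the 10 genes were. Quality weights also gave 8, and the share of all genes in those 2 fits is not given here. Cardiac marker sums ran from 173.8 to 1114 CPM in HDM.CS airways, and their part was not tested. In parenchyma Acta2 (0.91 ± 0.21, log2FC ± SE), Actg2 (1.18 ± 0.42) and Cnn1 (1.02 ± 0.42) were higher and Mylk (-0.46 ± 0.093) and Smtn (-0.84 ± 0.14) lower than in PBS.AIR mice, 5 of 10 genes called against 47.4% of all genes tested. Every HDM.CS library was below every control for Smtn, as for 6.82% of all genes. With parenchyma fitted on its own 6 of the 10 were called (52.4% of all genes), with Lmod1 added (log2FC 0.51, adj.p.val 0.00141). By DESeq2, by edgeR and with quality weights 7 were called, and the share of all genes in those fits is not given here. The HDM.CS, HDM.AIR and PBS.CS groups were each compared with the same PBS.AIR libraries.

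The HDM effect under smoke minus that in air was above 0 for all 10 genes in airways, with Myh11 (0.88 ± 0.30, log2 difference ± SE, adj.p.val 0.0281), Des (0.76 ± 0.28, 0.0441) and Cnn1 (0.94 ± 0.36, 0.0498) called, against 7.72% of all genes. The 10 genes vary together between airway libraries, so their shared sign does not count as 10 separate results. HDM.CS airway replicate 1 stood above its group for Cnn1 (153.1 CPM, others 26.7 to 67.4) and Des (168.3 CPM, others 57.01 to 100.9). No fit left that library out. None of the 10 was called by DESeq2, by edgeR, in a fit of all 20 groups, in a fit of airways alone, without the filter on low counts or without the airway libraries of low cardiac content. The last of these left out an HDM.AIR library with low Myh11, Acta2 and Lmod1, which by itself lowers this difference. With library quality weights 9 were called, and the share of all genes called in that fit is not given here. In parenchyma Tagln (0.87 ± 0.27), Smtn (0.74 ± 0.21) and Mylk (0.65 ± 0.13) had a positive difference, against 17.3% of all genes. In the groups behind this difference, Smtn was at 33.7 ± 3.67 CPM (mean ± SD, n = 10) in PBS.AIR, 21.6 ± 2.70 in PBS.CS, 16.98 ± 3.79 in HDM.AIR and 18.4 ± 2.81 in HDM.CS parenchyma.

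**Figure D3:**
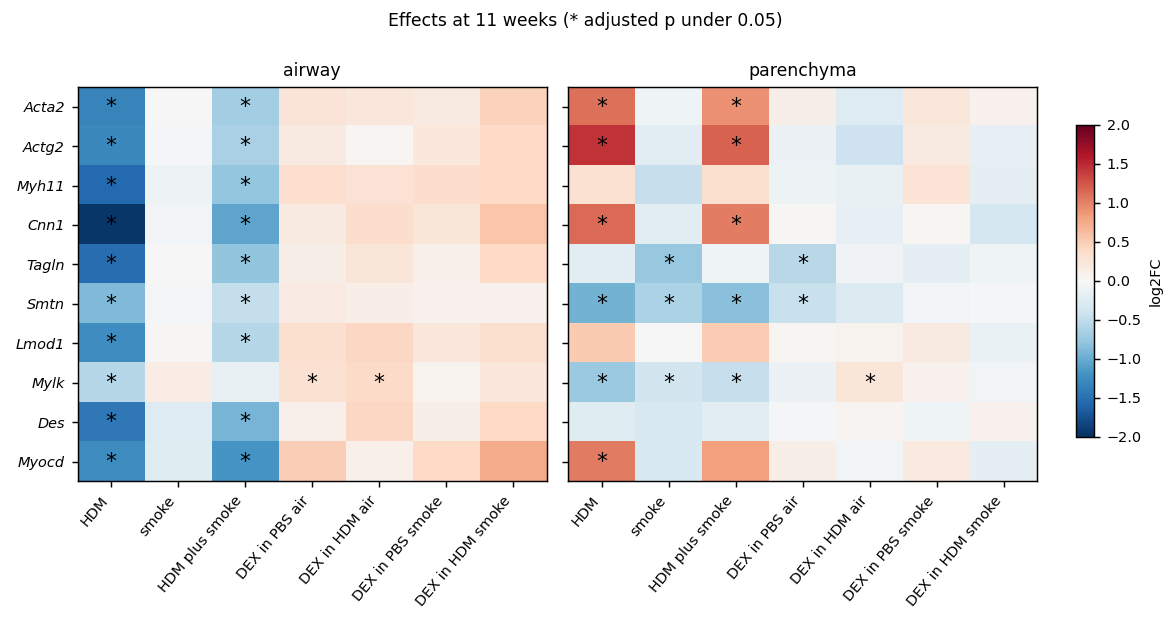
Log2FC at 11 weeks of each gene (rows) in airway and parenchyma for HDM, smoke, HDM plus smoke (each against PBS.AIR) and for dexamethasone within 4 exposures (columns), blue lower and red higher, with an asterisk at an adjusted p-value under 0.05. HDM lowered all 10 genes in airways, and dexamethasone values in airways are all above 0 and mostly uncalled.

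Dexamethasone changed few of these genes past the test. In airways Mylk was higher with DEX in PBS.AIR mice (log2FC 0.31, SE 0.096, adj.p.val 0.0158), against 8.03% of all genes, and in HDM.AIR mice (log2FC 0.38, SE 0.091, adj.p.val 4.48e-04), against 12.5% of all genes. Mylk was at 118.1, 152.8 and 193.1 CPM (lowest, median, highest of 10) in HDM.AIR and 152.8, 215 and 236 CPM in HDM.AIR.DEX airways, so that the groups overlapped. No gene was called in PBS.CS airways (11.3% of all genes called) or in HDM.CS airways (9.30%), by limma-voom, DESeq2 or edgeR. At an unadjusted p under 0.05, 0 and 5 of the 10 passed, against 4357 and 3803 of the 18250 genes tested. All 10 genes had a positive log2FC with DEX in each of the 4 airway comparisons, from 0.041 (Actg2, HDM.AIR) to 0.75 (Myocd, HDM.CS, adj.p.val 0.0967), and the 10 genes vary together between airway libraries.

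In parenchyma, DEX lowered Smtn and Tagln in PBS.AIR mice, against 12.0% of all genes. Smtn went from 27.7, 33.99 and 37.6 to 21.4, 24.5 and 28.5 CPM (log2FC -0.45, SE 0.14, adj.p.val 0.00854) and Tagln from 63.3, 79.7 and 110.7 to 40.6, 52.6 and 67.9 CPM (log2FC -0.56, SE 0.19, adj.p.val 0.0255). In HDM.AIR mice Mylk was higher with DEX (log2FC 0.24, SE 0.090, adj.p.val 0.0304), against 12.2% of all genes, a call not made by edgeR or without the library of high skeletal muscle content. None was called in PBS.CS (16.9% of all genes called) or HDM.CS parenchyma (7.86%), by any of the 3 tools. None had an unadjusted p under 0.05 in either, against 5407 and 3612 of the 18250 genes tested. Whether the DEX effect differed between exposures or tissues was not tested.

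Between airway libraries of the same group, the contractile genes rose and fell together. Each library's log2 CPM was taken as its deviation from its group mean, and the other 9 genes were set against Myh11 in the 101 airway libraries. Pearson's r ran from 0.73 (Mylk, Spearman's rho 0.69) to 0.96 (Lmod1, rho 0.93), with r of 0.96 for Acta2, 0.95 for Cnn1 and 0.88 for Myocd. The permutation p-values of all 9 were 1e-05, the smallest that 100000 resamples can give, and 1.4e-05 after Benjamini-Hochberg adjustment over 48 relations. Without the pair of libraries farthest from the median of Myh11, r ran from 0.71 to 0.96. In all parenchyma libraries the relations were looser, from 0.20 (Des, rho 0.26, adjusted permutation p 0.18 for r and 0.02 for rho) to 0.64 (Mylk, rho 0.61, adjusted permutation p 1.4e-05).

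The same airway deviations ran with the amount of other tissues. Against the mean of the 12 cardiac markers, r was 0.47 for Mylk and 0.72 to 0.84 for the other 9 genes (rho 0.45 and 0.70 to 0.82, adjusted permutation p at most 2.7e-05 for r). Against the mean of the 6 alveolar epithelial markers, r was -0.35 for Mylk (rho -0.32, adjusted permutation p 0.0031) and -0.78 to -0.68 for the others. In parenchyma no gene had a relation to the cardiac markers past the threshold, with r from -0.16 (Acta2, adjusted permutation p 0.072) to 0.067 (Myh11). The part of tissue composition in the differences between airway groups was not tested.

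**Figure D4:**
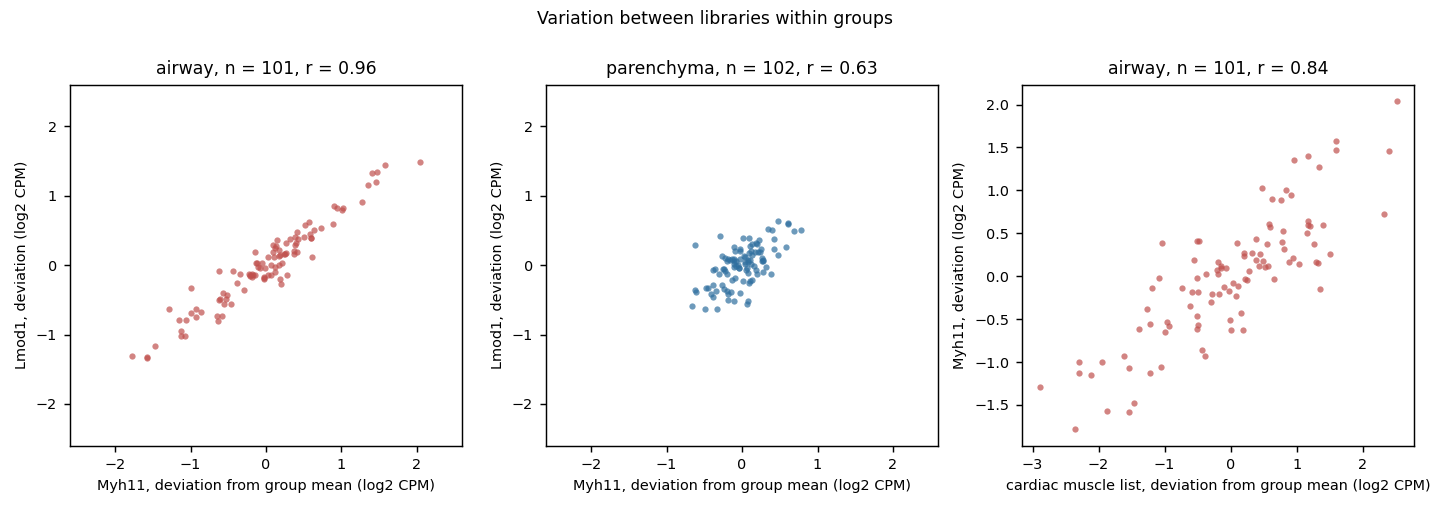
Each point is 1 library, as its deviation from its group mean in log2 CPM: Lmod1 against Myh11 in airways (left) and parenchyma (middle), and Myh11 against the mean of 12 cardiac markers in airways (right). Airway points follow a narrow line (r = 0.96) over a wider span than parenchyma points (r = 0.63), and Myh11 rises with the cardiac markers (r = 0.84).

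Among all 18528 genes, the genes most like Myh11 across airway libraries included Lmod1 (rank 1) and Acta2 (rank 2), and outside the 10 genes Synpo2 (r = 0.956), Mrvi1 (0.956), Tpm2 (0.954), Myl9 (0.951) and Jph2 (0.926). Tpm2 and Myl9 encode a tropomyosin and the regulatory light chain of smooth muscle myosin. Mylk ranked 324. Across parenchyma libraries the closest genes were Hmcn1 (0.735), Il17rd (0.730), Sema3g (0.729), Myo9a (0.714) and Cdc42bpa (0.711), while Mylk ranked 54, Lmod1 70 and Des 4576.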

How the data were processed

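The deposited table held expected counts per gene for 203 libraries (101 airway, 102 parenchyma), estimated by the authors and unscaled. The submitters' processing notes name bcl2fastq 2.20.0.422, STAR 2.5.1b, RSEM 1.2.31, kallisto 0.44.0 and mm10. Which of these made the table, and its strand setting, are not given in the sources used here. Values were rounded to whole numbers. Of 43346 identifiers, 42462 matched GENCODE M21 by stable identifier. No 2 libraries of a group agreed within sampling noise.

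Counts were fitted with limma-voom (limma 3.58.1, edgeR 4.0.16, R 4.3.3) after TMM scaling, with 1 mean per group. Genes were kept where 9 or more libraries reached a CPM worth 10 counts at median depth, which left 17381 genes at 3 weeks, 18250 at 11 weeks and 18528 with all groups. P-values were adjusted by Benjamini-Hochberg over all of these. Log2 CPM used a prior count of 2. Overlap of groups was judged on CPM. Alternatives were DESeq2 1.42.0, edgeR's quasi-likelihood test, DESeq2 size factors, other filters, quality weights, other sets of groups, and leaving out libraries. Fits of each tissue on its own, fits without 1 library or without the libraries of low cardiac or high skeletal muscle content, and the relation to alveolar markers were chosen after seeing the data. The genes and lists were chosen with earlier results of these data known. Genes outside the 10 were named by lowest adjusted p-value within a list, or by likeness to Myh11. Exon length is the union of all exons of a gene.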

Additional observations from a re-analysis of the deposited data

Results flagged for a closer look

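Single libraries stood apart from the others of their group in 14 of 180 tests (Dixon's test at 95% on log2 CPM, groups of 10 libraries), where chance gives about 9. In parenchyma, HDM.CS.DEX replicate 8 was the highest for Acta2 (159.3 CPM, others 37.96 to 65.4) and Tagln (141.4 CPM, others 45.8 to 78.99), and HDM.AIR replicate 4, the library of high skeletal muscle content, for Des (148.8 CPM, others 29.9 to 61.96). PBS.CS replicate 9 was the lowest for Smtn (15.8 CPM, others 20.4 to 26.4), Mylk (143.4 CPM, others 192.4 to 259) and Myocd (0 CPM, others 0.191 to 0.427), and PBS.AIR replicate 1 for Myocd (0.0423 CPM, others 0.184 to 0.536). In airways, HDM.CS replicate 1 was the highest for Cnn1 (153.1 CPM, others 26.7 to 67.4), Des (168.3 CPM, others 57.01 to 100.9) and Smtn (40.3 CPM, others 22.3 to 27.7), and PBS.CS.DEX replicate 5 for Mylk (349 CPM, others 232 to 286). PBS.AIR.DEX replicate 2 was the lowest for Actg2 (13.6 CPM, others 34.8 to 86.2) and Cnn1 (28.1 CPM, others 86.1 to 201.3), and HDM replicate 10 at 3 weeks for Myocd (0.101 CPM, others 0.736 to 3.93).

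Effects that differed between tissues, exposures or durations by the limma-voom test of the difference are listed as log2 differences. For the HDM effect in airways minus that in parenchyma, Acta2 was at -1.43 at 3 weeks, and at 11 weeks Acta2 was at -2.44, Actg2 at -2.73, Myh11 at -1.86, Tagln at -1.31, Cnn1 at -3.07, Des at -1.20, Lmod1 at -1.77 and Myocd at -2.29. For the HDM effect under smoke minus that in air, Myh11 was at 0.88, Cnn1 at 0.94 and Des at 0.76 in airways, and Tagln at 0.87, Smtn at 0.74 and Mylk at 0.65 in parenchyma. For the HDM effect at 11 weeks minus that at 3 weeks, Myh11 was at -1.04, Cnn1 at -1.22 and Myocd at -1.72 in airways, and Smtn at -0.66 in parenchyma.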

How the results depend on the processing

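The fall of all 10 genes in HDM.AIR airways at 11 weeks was called under every alternative that tested them, the stricter filter leaving out Myocd and calling the other 9, and 8 tissue differences of the HDM effect at 11 weeks in each fit without 1 library. Over all values and alternatives, 902 kept direction and call, 53 lost and 18 gained the call, and 11 turned direction. Counts of called genes moved as follows, and the cause was not tested. Except where given above, the share of all genes called under the same alternative is not given, so a count may have moved with the whole table. With each tissue fitted on its own, HDM at 3 weeks went from 5 to 2 in airways and from 3 to 7 in parenchyma, HDM by smoke in airways from 3 to 0, duration from 3 to 1 in airways and from 1 to 2 in parenchyma, and DEX in HDM.AIR parenchyma from 1 to 2. Without the airway libraries of low cardiac content, HDM in airways at 3 weeks was 3, its tissue difference 0 (from 1), HDM by smoke in airways 0 and duration in airways 7. Those libraries were all of HDM mice and were picked by a sum that runs with the contractile genes. Their removal by itself raises most HDM values behind those counts. With quality weights, HDM in parenchyma at 3 weeks was 5, its tissue difference 2, HDM by smoke in airways 9, DEX in PBS.AIR airways 3 (from 1) and duration in airways 5. DESeq2 gave 2 for the tissue difference at 3 weeks and 0 for HDM by smoke in airways, where edgeR and the fit of all 20 groups also gave 0. Without the filter, the tissue difference at 3 weeks, HDM by smoke in airways and DEX in HDM.AIR parenchyma were 0, and DEX in PBS.AIR parenchyma was 1 (from 2), as with all 20 groups. DEX in HDM.AIR parenchyma was 0 with edgeR and 0 without the library of high skeletal muscle content. HDM plus smoke in parenchyma went from 5 to 3 with the stricter filter (CPM of 10 or more, 9 libraries), and to 7 with DESeq2, edgeR or quality weights and 6 on its own tissue. Smoke in parenchyma went from 3 to 4 on its own tissue and with quality weights, and HDM plus smoke in airways from 9 to 8 under the same alternatives. Outlying libraries numbered 22 on the CPM scale.

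Leaving out 1 library gave 5 to 7 calls for HDM in airways at 3 weeks, 2 to 3 in parenchyma, 9 to 9 between tissues and 0 to 1 for the tissue difference, and at 11 weeks 10 to 10, 5 to 6, 8 to 9 and 8 to 8. Direction turned only for uncalled values. For HDM in airways at 3 weeks without the libraries of low cardiac content, Actg2 was at 0.15 and Myh11 at 0.026. For Mylk between tissues at 3 weeks the value was -0.0068 with all 20 groups and -0.095 with quality weights. Lmod1 with HDM in parenchyma at 3 weeks was at 0.012 (all 20 groups), 0.032 (stricter filter), 0.041 (DESeq2 size factors), 0.068 (DESeq2), 0.068 (no filter), 0.058 (own tissue) and 0.049 (without the libraries of low cardiac content). No paired analysis was possible because the libraries carry codes of their own that are not shared between groups.

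Depth limits Myocd in parenchyma, where libraries held few reads. Airway libraries held varying amounts of cardiac and alveolar RNA.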
